A study of Mus musculus with 7 samples.

Results

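The phagocyte NADPH oxidase genes Cybb, Cyba, Ncf1, Ncf4 and Rac2, with the related catalytic subunit gene Nox4, were described in isolated islets of the congenic strain NOD.ALRc8(D8Mit293-D8Mit137) and of NOD-Rag1-/- mice. These 6 genes were chosen by name from the 25793 gene symbols on the array, and the brightest probe set of each symbol stands for the gene. NOD.ALRc8(D8Mit293-D8Mit137) mice (labelled NOD_Idd22) are NOD mice in which the stretch of Chr 8 from D8Mit293 to D8Mit137 comes from ALR, and their Rag1 is intact. ALR is a strain related to NOD that resists alloxan, a toxin of beta cells. NOD-Rag1-/- mice (labelled NOD-Rag1KO) carry the Rag1 tm1Mom null allele in all cells, so they make no mature T or B cells and do not develop insulitis. They stood in for NOD mice, whose islets are infiltrated to a varying degree at this age. The Chr 8 segment and the state of Rag1 therefore differed together between the groups, and their effects cannot be told apart. There were 4 pools of congenic islets and 3 pools of NOD-Rag1-/- islets, each made from about 200 islets of 2 mice aged 10 to 12 weeks. RNA was hybridised to Affymetrix Mouse Gene 2.0 ST arrays. All values below are the authors' log2 RMA values, in which a difference of 1 is a doubling, and a log2 fold change (FC) is NOD.ALRc8(D8Mit293-D8Mit137) minus NOD-Rag1-/-. Each was tested with limma over 34351 annotated probe sets.

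The NADPH oxidase of phagocytes moves electrons from NADPH across a membrane onto oxygen and so makes superoxide, which neutrophils and macrophages use against microbes. Its catalytic core, gp91phox (Cybb), is held in the membrane by p22phox (Cyba). On activation cytosolic subunits, p47phox (Ncf1) and p40phox (Ncf4) among them, join this core together with the GTPase Rac2, whereas Nox4 needs p22phox but no cytosolic subunit and releases mainly hydrogen peroxide. In islets these genes are of interest because beta cells have little defence against peroxide, and because NOD mice that lack the phagocyte oxidase have been used to study its part in diabetes.

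RefSeq promoter windows (GRCm38.p6), each from 250 bases before to 30 bases after a transcript start, were found for 4 of the 6 genes (Cybb, Cyba, Ncf1 and Nox4). The windows of Cybb, Ncf1 and Cyba are shown because these subunits differed in how far apart the strains lay, and because the transcription factors of phagocyte oxidase genes are described below. Capitals mark every match to one of 3 short motifs searched on both strands, which were the PU.1 core GAGGAA, the composite ETS-IRF motif (GGAA and GAAA with 2 bases of any kind between them) and the interferon response core (GAAA and GAAA with 2 bases of any kind between them).
Cybb, chrX:9469295-9469574, minus strand: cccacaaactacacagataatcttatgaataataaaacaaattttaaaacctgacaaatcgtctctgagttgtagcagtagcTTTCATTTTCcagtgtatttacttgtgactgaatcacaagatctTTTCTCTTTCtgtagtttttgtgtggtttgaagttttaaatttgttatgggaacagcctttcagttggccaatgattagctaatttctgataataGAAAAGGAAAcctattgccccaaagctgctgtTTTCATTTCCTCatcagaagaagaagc
Ncf1, chr5:134229596-134229875, minus strand: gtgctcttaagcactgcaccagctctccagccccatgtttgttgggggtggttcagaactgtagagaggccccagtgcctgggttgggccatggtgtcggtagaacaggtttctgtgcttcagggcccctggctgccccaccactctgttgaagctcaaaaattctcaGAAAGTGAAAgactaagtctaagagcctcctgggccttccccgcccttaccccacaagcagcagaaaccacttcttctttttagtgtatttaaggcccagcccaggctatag
Cyba, chr8:122432911-122433190, minus strand: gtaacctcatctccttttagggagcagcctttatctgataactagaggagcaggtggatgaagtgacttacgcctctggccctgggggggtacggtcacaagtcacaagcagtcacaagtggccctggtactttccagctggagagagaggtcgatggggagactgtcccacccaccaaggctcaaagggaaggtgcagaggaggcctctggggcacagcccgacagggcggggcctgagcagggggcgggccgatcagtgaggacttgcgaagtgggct
The Cybb window belongs to a start inside the span that the array annotation gives to the gene. It held GAGGAA on the minus strand at bases 10 to 15, counted from the start as base 1, overlapping the ETS-IRF motif at bases 4 to 13. It also held the interferon response core at 3 places, from base -168 to -159 and from -124 to -115 on the minus strand and from -29 to -20 on the plus strand. The Ncf1 window held the interferon response core once, at -82 to -73 on the plus strand. Of all 32851 RefSeq windows of this length, 26% held GAGGAA, 2.55% held the ETS-IRF motif and 3.28% held the interferon response core. None of the 3 motifs was found in the letters of the Cyba and Nox4 windows. These matches describe the sequence and were not tested as binding sites.

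Before the subunits are described, differences between the arrays themselves are given, some of them within a strain. Correlations between pools over all probe sets were 0.976 to 0.986 within the congenic strain, 0.984 to 0.993 within NOD-Rag1-/- and 0.965 to 0.981 between the strains. The lower quartile of the values divided the arrays into a set with 2.64 to 2.68 (congenic replicates 2, 3 and 4 with NOD-Rag1-/- replicate 1) and a set with 2.49 to 2.50 (congenic replicate 1 with NOD-Rag1-/- replicates 2 and 3). Differences within each set are given beside each subunit as values with no test. NOD-Rag1-/- replicate 1 had the values of a male pool, with Xist at 2.56 and Ddx3y at 6.25, against 9.69 to 10.28 and 1.99 to 2.08 in the other 6 pools. The islet hormone genes Ins2, Gcg and Sst were high in every pool, at 10.34 to 12.87 in the congenic strain and 10.58 to 12.95 in NOD-Rag1-/-. The probe set of Rag1 did not separate the strains, with 3.25, 3.58, 3.64 and 3.87 in the congenic pools and 4.02, 3.63 and 4.21 in the NOD-Rag1-/- pools (limma adjusted p = 0.577). The immunoglobulin gene Igkc, by contrast, was 10.71 to 11.92 in the congenic pools and 3.45 to 3.99 in the NOD-Rag1-/- pools.

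The 5 genes of the phagocyte complex were all higher in NOD.ALRc8(D8Mit293-D8Mit137) islets, by 0.75 to 2.15 on the log2 scale, and Nox4 was not. The study's threshold, an absolute log2 FC over 0.5 with an unadjusted p of 0.05 or less, was passed by 5 of the 6 genes, all higher in the congenic strain, whereas 5.59% of all probe sets passed it, 3.81% as higher and 1.78% as lower. The congenic and NOD-Rag1-/- pools did not overlap for 4 of the 6, against 4.43% of all probe sets whose congenic pools all lay above the NOD-Rag1-/- pools and 2.74% whose congenic pools all lay below them. None of the 6 had a limma adjusted p under 0.05, which 54 probe sets (0.157%) had, while 9.48% of probe sets had an unadjusted p under 0.05. The median log2 FC of the 6 genes was 1.33, beside 0.02 over all probe sets. As these are whole islets, more cells that express a gene and more RNA per cell cannot be told apart. The pools were treated as separate samples, and the sources do not say whether any pools shared mice. The limma p-values set the strain difference against the spread between these pools, which for Nox4 was 0 in the congenic strain, as described below.

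**Figure D1:**
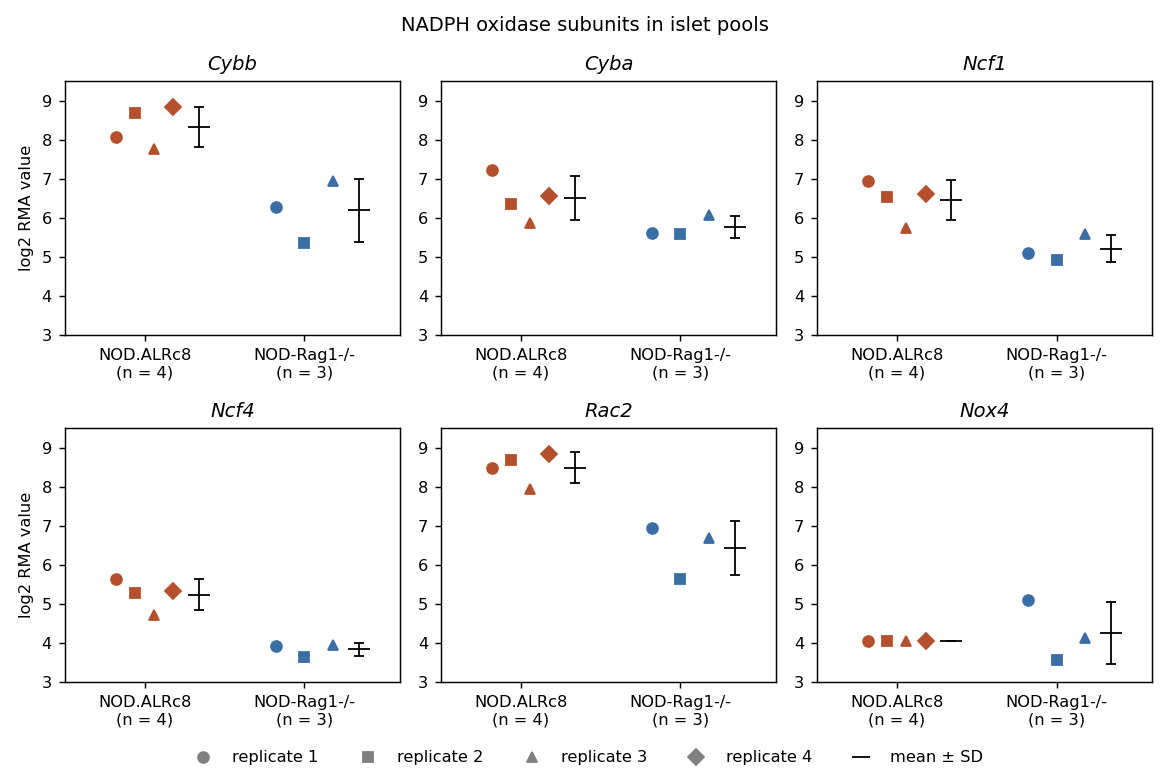
Log2 RMA value (vertical axis) of each NADPH oxidase subunit in the 4 NOD.ALRc8(D8Mit293-D8Mit137) pools (red, left) and the 3 NOD-Rag1-/- pools (blue, right), with the shape of a point giving the replicate and the black bars the mean ± SD. The congenic pools lie above all NOD-Rag1-/- pools for Cybb, Ncf1, Ncf4 and Rac2, overlap them by 1 pool for Cyba, and share the single value 4.05 for Nox4.

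Cybb encodes gp91phox, the flavocytochrome that carries the electrons, and lies on Chr X (9435252 to 9487771, GRCm38, probe set 17540154). Its values were 8.06, 8.68, 7.75 and 8.84 in the congenic pools and 6.28, 5.35 and 6.94 in the NOD-Rag1-/- pools. Every congenic pool was above every NOD-Rag1-/- pool, with 0.81 between the closest pair, and NOD-Rag1-/- replicate 2 was the lowest of all. The means were 8.33 ± 0.51 (SD, n = 4) in congenic islets and 6.19 ± 0.80 (SD, n = 3) in NOD-Rag1-/- islets. The log2 FC was 2.15 (SE 0.41, 95% interval 1.17 to 3.12), a 4.43-fold difference, the largest of the 6 genes, with a limma adjusted p of 0.158. An exact two-sided permutation test over the 35 splits of the 7 pools gave p = 0.0286, the smallest value that this design allows. The difference was 2.15 within the set of arrays with the higher quartile and 1.92 within the other. As Cybb is X-linked and NOD-Rag1-/- replicate 1 had the values of a male pool, the fit was repeated without this pool and gave 2.19 (limma adjusted p = 0.312). A second, dimmer probe set of Cybb (17533223, Chr X 9436605 to 9437550) gave 3.87, 4.57, 3.87 and 4.24 in the congenic pools and 3.63, 3.34 and 3.35 in the NOD-Rag1-/- pools. The strains did not overlap on it either, but its log2 FC was smaller, at 0.70 (SE 0.19, limma adjusted p = 0.333), and the mean of both probe sets differed by 1.42.

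Cyba encodes p22phox, the membrane partner that gp91phox and Nox4 both need for stability. It is the only one of the 6 genes on Chr 8 (122424771 to 122432940, probe set 17513672), and it lies distal to D8Mit137 and so outside the congenic segment, as far as marker positions in an earlier build allow. Its values were 7.23, 6.36, 5.88 and 6.55 in the congenic pools and 5.60, 5.59 and 6.08 in the NOD-Rag1-/- pools. The strains overlapped, because congenic replicate 3 lay below NOD-Rag1-/- replicate 3. The means were 6.50 ± 0.56 (SD, n = 4) in congenic islets and 5.76 ± 0.28 (SD, n = 3) in NOD-Rag1-/- islets. The log2 FC of 0.75 (SE 0.31, 95% interval 0.03 to 1.47) was the smallest of the 5 phagocyte subunits, a 1.68-fold difference, with a limma unadjusted p of 0.0433 and an adjusted p of 0.514. The exact permutation test gave p = 0.114. The difference was 0.66 and 1.39 within the sets of arrays with the higher and the lower quartile. Of the 15 alternative settings, Cyba passed the study's threshold in 7, and its call rested on single pools. It did not pass without congenic replicate 1 (log2 FC 0.51), congenic replicate 2 (0.80), congenic replicate 4 (0.73), NOD-Rag1-/- replicate 1 (0.67) or NOD-Rag1-/- replicate 2 (0.67).

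Ncf1 encodes p47phox, the organiser that is phosphorylated on activation and brings the cytosolic subunits to the membrane (Chr 5, 134220260 to 134229625, probe set 17453288). Its values were 6.95, 6.53, 5.75 and 6.60 in the congenic pools and 5.11, 4.92 and 5.59 in the NOD-Rag1-/- pools. The strains did not overlap, but congenic replicate 3 was only 0.17 above NOD-Rag1-/- replicate 3. The means were 6.46 ± 0.50 (SD, n = 4) in congenic islets and 5.20 ± 0.34 (SD, n = 3) in NOD-Rag1-/- islets. The log2 FC was 1.25 (SE 0.29, 95% interval 0.56 to 1.94), a 2.38-fold difference, with a limma adjusted p of 0.241 and an exact permutation p of 0.0571. Within the sets of arrays with the higher and the lower quartile the difference was 1.18 and 1.69.

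Ncf4 encodes p40phox, which binds a phosphoinositide of the phagosome membrane (Chr 15, 78244801 to 78262580, probe set 17312700). Its values were 5.65, 5.27, 4.72 and 5.33 in the congenic pools and 3.93, 3.65 and 3.95 in the NOD-Rag1-/- pools. The lowest congenic pool, replicate 3, was 0.78 above the highest NOD-Rag1-/- pool, and the 3 NOD-Rag1-/- pools lay close together. The means were 5.24 ± 0.38 (SD, n = 4) in congenic islets and 3.84 ± 0.17 (SD, n = 3) in NOD-Rag1-/- islets. The log2 FC was 1.40 (SE 0.21, 95% interval 0.90 to 1.90), a 2.64-fold difference, with an exact permutation p of 0.0286. The 3 NOD-Rag1-/- values lay below the median of all probe sets (3.96), and at such dim levels an array can understate a fold. Its limma adjusted p of 0.0933 was the lowest of the 6 genes, and without congenic replicate 3 the log2 FC was 1.58 with a limma adjusted p of 0.0130. With any other pool left out, the limma adjusted p was 0.0618 to 0.427, and with the replicate block it was 0.572. Within the sets of arrays with the higher and the lower quartile the difference was 1.18 and 1.85.

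Rac2 encodes the GTPase of blood cells that switches the assembled oxidase on (Chr 15, 78559169 to 78572783, probe set 17319037). Its values were 8.48, 8.69, 7.95 and 8.85 in the congenic pools and 6.94, 5.64 and 6.70 in the NOD-Rag1-/- pools. All congenic pools were at least 1.01 above the NOD-Rag1-/- pools, the widest gap of the 6 genes, and NOD-Rag1-/- replicate 2 was lower than the other NOD-Rag1-/- pools. The means were 8.49 ± 0.39 (SD, n = 4) in congenic islets and 6.43 ± 0.69 (SD, n = 3) in NOD-Rag1-/- islets. The log2 FC was 2.06 (SE 0.35, 95% interval 1.25 to 2.88), a 4.18-fold difference, with a limma adjusted p of 0.107 and an exact permutation p of 0.0286. Within the sets of arrays with the higher and the lower quartile the difference was 1.55 and 2.31. Rac2 is expressed in lymphocytes as well as in phagocytes. The marker lists of lymphocytes, macrophages, dendritic, endothelial, stromal and acinar cells, given below, all had median log2 FCs of 0.65 or more. The list of neutrophils had 0.11. The part of any of these cells in the difference of Rac2 was not tested.

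Nox4, which encodes a constitutively active catalytic subunit known from kidney, vessel wall and other tissues, had another pattern (Chr 7, 87246096 to 87398710, probe set 17479974). The deposited value was the same in the 4 congenic pools, 4.05, and the NOD-Rag1-/- pools had 5.11, 3.56 and 4.12. The NOD-Rag1-/- pools lay on both sides of the congenic value, with replicate 1 the highest. The mean of the NOD-Rag1-/- pools was 4.26 ± 0.79 (SD, n = 3). The log2 FC was -0.21 (SE 0.32, 95% interval -0.98 to 0.55; limma adjusted p = 0.842; exact permutation p = 0.6), an interval that includes a fall or a rise of more than 0.5. Within the sets of arrays with the higher and the lower quartile the difference was -1.06 and 0.21, and without NOD-Rag1-/- replicate 1 the log2 FC was 0.21. Identical values across pools were frequent in the deposited table, as 52.5% of probe sets had at least 2 pools at exactly the same value and 398 probe sets (1.16%) had all 4 congenic pools at one value. The SD of 0 in the congenic strain is therefore not a measure of the spread between these pools. The SE, the interval and the limma p of Nox4 were computed with these values, so they may understate the uncertainty.

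**Figure D2:**
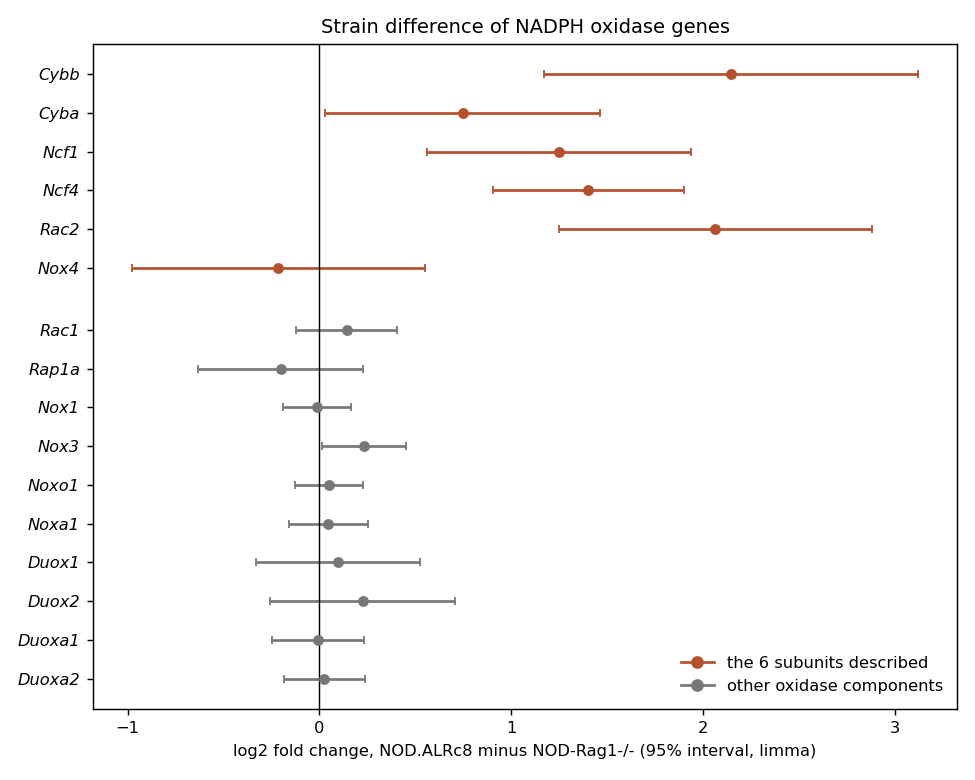
Log2 FC (horizontal axis, NOD.ALRc8(D8Mit293-D8Mit137) minus NOD-Rag1-/-) with its 95% interval from limma, for the 6 subunits (red) and 10 other NADPH oxidase components (grey). The intervals of Cybb, Cyba, Ncf1, Ncf4, Rac2 and Nox3 lie above 0, with Cybb (2.15) and Rac2 (2.06) farthest to the right, and that of Nox4 (-0.21) spans 0.

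The 5 phagocyte subunits shared the lowest pool of each strain but not the full order of the pools. Congenic replicate 3 had the lowest congenic value of all 5, and NOD-Rag1-/- replicate 2 the lowest NOD-Rag1-/- value of all 5. The mean log2 value of the 5 was 7.27, 7.10, 6.41 and 7.24 in the congenic pools and 5.57, 5.03 and 5.85 in the NOD-Rag1-/- pools, so congenic replicate 3 lay nearest to NOD-Rag1-/-. The highest congenic pool differed between subunits, and was replicate 1 for Cyba, Ncf1 and Ncf4 and replicate 4 for Cybb and Rac2. Over the 7 pools, the Pearson correlation was 0.974 between Cybb and Rac2, 0.974 between Ncf1 and Ncf4, 0.939 between Cyba and Ncf1 and 0.721 between Cybb and Cyba. After the strain means were subtracted, these were 0.866, 0.946, 0.935 and 0.338. Nox4 correlated at -0.205 to 0.059 with the other 5 over the 7 pools. After the strain means were subtracted this was -0.056 to 0.716, highest with Rac2 and 0.35 with Cybb, and as the congenic value of Nox4 was constant it rests on the 3 NOD-Rag1-/- pools. These are descriptions over 7 pools that share the strain difference and the arrays, and were not tested.

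**Figure D3:**
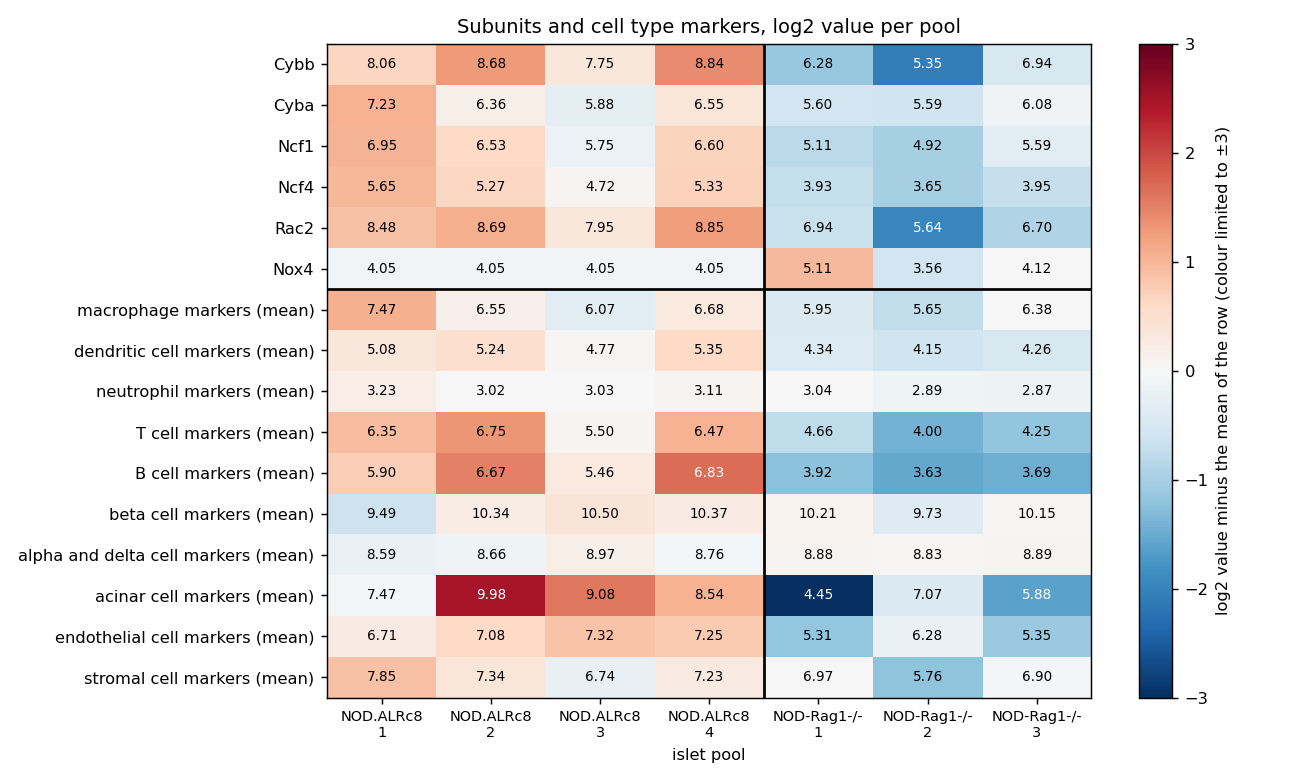
Log2 value (printed number) of each subunit and mean log2 value of each cell type marker list in the 4 NOD.ALRc8(D8Mit293-D8Mit137) pools (left of the line) and the 3 NOD-Rag1-/- pools (right), with colour giving the distance from the mean of the 7 pools. The 5 phagocyte subunits and the macrophage, dendritic cell, lymphocyte and stromal means are all lowest among congenic pools in replicate 3. The neutrophil means stay between 2.87 and 3.23 in all pools.

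Of the other NADPH oxidase components, 10 of the 11 considered here were measured, and 0 passed the study's threshold with limma in either direction, although 1 of them, Nox3, had an unadjusted p under 0.05 (0.0412). The widely expressed GTPases Rac1, which can replace Rac2 in other cells, and Rap1a, which copurifies with the flavocytochrome, had log2 FCs of 0.14 and -0.20. The catalytic subunits of other oxidases, Nox1, Nox3, Duox1 and Duox2, had -0.01, 0.23, 0.10 and 0.23. Their partners Noxo1, Noxa1, Duoxa1 and Duoxa2 had 0.05, 0.05, -0.01 and 0.02. Nox3, known from the inner ear, was dim in all pools, and its congenic pools (2.97 to 3.14) did not overlap the NOD-Rag1-/- pools (2.74 to 2.95). The median of the 10 was 0.05.

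Several genes that signal to the oxidase were also higher in the congenic strain. Of 18 genes of activation signalling, 8 passed the study's threshold as higher and 0 as lower, beside 3.81% and 1.78% of all probe sets, with a median log2 FC of 0.45. The largest changes were those of Dock2, an exchange factor for Rac (log2 FC 1.89), the phosphoinositide kinase gene Pik3cg (1.48), the kinase gene Syk (1.28) and Vav1, another Rac exchange factor (1.14). Dock2 was 6.24, 7.05, 5.40 and 6.50 in the congenic pools and 4.60, 4.11 and 4.51 in the NOD-Rag1-/- pools, without overlap and with a limma adjusted p of 0.151. Of 15 receptors that trigger the oxidase, 5 passed as higher and 0 as lower (median 0.50), led by Itgb2, the integrin chain of leukocytes, at 1.99, with the Fc receptor genes Fcgr1 at 1.03 and Fcer1g at 0.96. Itgb2 was 8.26, 7.85, 6.58 and 7.71 in the congenic pools and 5.03, 5.67 and 6.13 in the NOD-Rag1-/- pools, so that congenic replicate 3 was again the lowest congenic pool. Clec7a, the beta-glucan receptor, had a log2 FC of 1.31 that did not pass, as it was 7.81 in congenic replicate 1 and 4.91 to 5.91 in the other congenic pools, against 3.94 to 5.17 in NOD-Rag1-/-. None of these genes had a limma adjusted p under 0.05.

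Several transcription factors of phagocyte oxidase genes were higher in the congenic strain as well. Of 9 such genes, 5 passed the study's threshold as higher and 0 as lower, with a median log2 FC of 0.69. Irf8, which with PU.1 drives the gp91phox gene in myeloid cells, was 5.32 to 6.17 in the congenic pools and 4.28 to 4.52 in the NOD-Rag1-/- pools (1.46, limma adjusted p = 0.078). The strains did not overlap. Ikzf1, a factor of lymphoid and myeloid cells, and Irf1 had log2 FCs of 1.52 and 0.86. Spi1, the gene of PU.1 itself, was 5.54 to 6.01 in the congenic pools and 4.71 to 5.36 in the NOD-Rag1-/- pools (0.78, limma adjusted p = 0.231).

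Genes that supply or clear the products of the oxidase showed no common direction. Of 10 genes for protons, ions and NADPH, 2 passed the study's threshold as higher and 1 as lower, with a median log2 FC of -0.06. The potassium channel gene Kcnn4 (log2 FC 1.24) and Hvcn1 (1.0), the proton channel that balances the charge moved by the oxidase, were higher. Hvcn1 was 6.07, 6.20, 5.50 and 6.31 in the congenic pools and 5.18, 4.84 and 5.04 in the NOD-Rag1-/- pools, a pattern without overlap. Me1, the cytosolic malic enzyme that makes NADPH, was lower, with 8.48, 7.49, 7.37 and 7.26 in the congenic pools and 8.07, 8.73 and 8.53 in the NOD-Rag1-/- pools (-0.80, limma adjusted p = 0.504), and only congenic replicate 1 reached the NOD-Rag1-/- pools. The chloride transporter gene Clcn3 had -0.43, and its congenic pools all lay below the NOD-Rag1-/- pools, as for 2.74% of all probe sets. It lies on Chr 8 (60910389 to 60983311), inside the congenic segment as far as marker positions in an earlier build allow. Of 12 genes of superoxide and peroxide removal, only Sod3, the secreted superoxide dismutase, passed as higher (0.76), and the median was -0.07. Sod1, Sod2 and Prdx3, of the cytosol and mitochondria, had -0.27, -0.30 and -0.33 and did not pass.

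Markers of immune and other non-endocrine cells differed between the same pools. Of 14 macrophage markers, 6 passed the study's threshold as higher and 0 as lower (median log2 FC 1.03), and the mean level of the list was 6.07 to 7.47 in the congenic pools and 5.65 to 6.38 in the NOD-Rag1-/- pools, with overlap. The defining markers Adgre1 and Csf1r were 5.14 to 6.31 and 6.40 to 7.90 in the congenic pools and 4.56 to 5.17 and 5.26 to 6.40 in the NOD-Rag1-/- pools. The macrophage mean was highest in congenic replicate 1 (7.47), as were Cyba, Ncf1 and Ncf4. The stromal mean (7.85) and the neutrophil mean (3.23) were highest in this pool too. The rank of the neutrophil mean rested largely on Mmp9, which macrophages also make. Mmp9 was 6.91 in this pool and 3.61 to 3.83 in the other congenic pools. Of 9 dendritic cell markers, 3 passed as higher and 0 as lower (median 0.65), with mean levels of 4.77 to 5.35 in congenic pools and 4.15 to 4.34 in NOD-Rag1-/- pools. Of 13 neutrophil markers, 0 passed in either direction (median 0.11), their mean was 3.02 to 3.23 in congenic pools and 2.87 to 3.04 in NOD-Rag1-/- pools, and the defining markers S100a8 and S100a9 were at 1.73 to 2.06 and 2.86 to 3.12 in the congenic pools and 1.71 to 1.75 and 2.79 to 3.17 in the NOD-Rag1-/- pools, below the median of all probe sets (3.96).

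The lymphocyte lists differed in nearly all of their genes. Of 12 T cell markers 11 and of 10 B cell markers 9 passed the study's threshold as higher, 0 as lower, with medians of 1.53 and 1.54. Their mean levels were 5.50 to 6.75 and 5.46 to 6.83 in the congenic pools and 4.0 to 4.66 and 3.63 to 3.92 in the NOD-Rag1-/- pools. The B cell mean was highest in congenic replicate 4 (6.83), as were the dendritic cell mean (5.35), Cybb and Rac2, whereas the T cell mean was highest in congenic replicate 2 (6.75), where none of the 5 phagocyte subunits was highest. Acinar markers passed as higher in 11 of 12 (median 2.91, mean level 7.47 to 9.98 in congenic pools and 4.45 to 7.07 in NOD-Rag1-/- pools), endothelial markers in 9 of 10 (median 1.33) and stromal markers in 2 of 10 (median 0.67). The 10 beta cell markers and the 5 alpha and delta cell markers had none past the threshold, with medians of 0.24 and -0.09. The part of these cells in the differences of the oxidase subunits was not tested.

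For each subunit, the genes whose pattern over the 7 pools was most like it were ranked by Pearson correlation among 14988 genes of at least median brightness. For Cybb these were Pld4, an endolysosomal nuclease of myeloid and B cells (0.994), I830077J02Rik (0.988) and the small nucleolar RNA Snord32a (0.984). For Cyba they were Ifngr2, a chain of the interferon gamma receptor (0.996), Pde2a (0.990) and Itpripl1 (0.987). For Ncf1 they were B4galnt1 (0.996), the complement regulator properdin (Cfp, 0.990) and the laminin chain Lamc1 (0.990). For Ncf4 they were Myo1g, a myosin of blood cells (0.994), Ifitm3, an interferon-induced membrane protein (0.992), and Gm10499 (0.991). For Rac2 they were Ifi203 (0.986), the T cell coreceptor Cd4 (0.984) and Cnn2 (0.983). For Nox4 they were Gm14424 (0.997), the transcription factor Pou3f1 (0.992) and 4930579G24Rik (0.989), whose log2 FCs were -0.02, -0.08 and -0.01. With 7 pools and this many genes, high correlations are frequent, and the ranking is a description only.

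**Figure D4:**
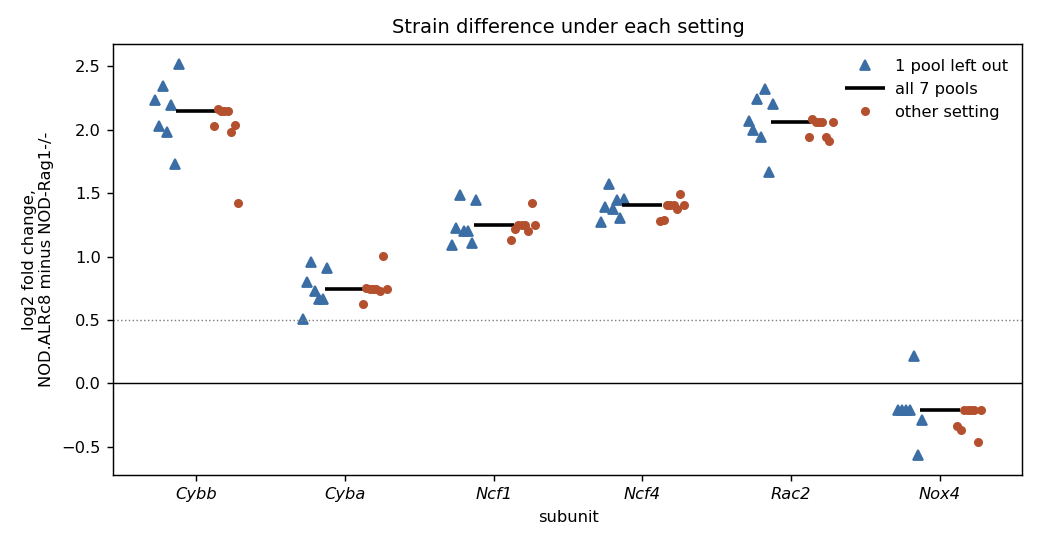
Log2 FC of each subunit (vertical axis, NOD.ALRc8(D8Mit293-D8Mit137) minus NOD-Rag1-/-) with each pool left out in turn (blue triangles), with all 7 pools (black line) and under the other settings (red points). The dotted line marks 0.5. Cybb stays between 1.42 and 2.52 and Cyba between 0.51 and 1.01, and Nox4 is above 0 in 1 setting only, at 0.21.

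Across the 15 alternative settings, Cybb, Ncf1, Ncf4 and Rac2 passed the study's threshold in all 15. With each pool left out in turn, the log2 FC was 1.73 to 2.52 for Cybb, 0.51 to 0.96 for Cyba, 1.09 to 1.49 for Ncf1, 1.27 to 1.58 for Ncf4 and 1.67 to 2.32 for Rac2. Nox4 passed in none of the 15.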

How the data were processed

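Islet RNA of 4 NOD.ALRc8(D8Mit293-D8Mit137) pools and 3 NOD-Rag1-/- pools was measured on Affymetrix Mouse Gene 2.0 ST arrays. The deposited values are log2 expression values (log2) that the authors made with RMA, whose version is not given in the sources used here. Probe sets were named, by probe set number, from the deposited table of the authors' comparison, which also gives other fields (coordinates, with no build named). Its log2 fold changes (log2) and the p-values deposited with it (p_value) are the authors' results and were not used. By probe set number these columns did not follow the deposited pool values, and the reason is not known. As a check of the naming, 99.88% of neighbouring probe sets were on one chromosome, and of 20509 accessions found in RefSeq, 99.74% had the same symbol and 96.42% overlapped in position in GRCm38. These figures concern that table alone. Whether its probe set numbers carry the right names for the values was judged only from marker genes such as those of islet hormones, immunoglobulins and the sex chromosomes.

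A linear model without covariates was fitted to 34351 annotated probe sets (lmFit and eBayes of limma 3.58.1, R 4.3.3), while 121 without annotation were left out. Benjamini-Hochberg adjustment ran over all of them. The study's threshold was applied to limma's unadjusted p. Groups came from the sample labels. Single genes were also tested by exact permutation. The fit was tested on simulated data with known changes. Tables were handled in Python 3.11.15 with pandas 2.3.3 and numpy 2.4.6, and plots were drawn with matplotlib 3.10.9.

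The 6 genes and the gene lists were chosen with earlier results of these data known. The brightest probe set stood for a gene. Some genes of the lists are not reported here. The text names the 6 genes, all other oxidase components, up to 4 genes per list with the largest change, the first 2 markers of each cell type and 3 genes most like each subunit. The alternatives were median centring, quantile normalization, brighter probe sets only, a trend and robust fit, the methods' t-test, a replicate block, the sets of arrays as a block, the mean of all probe sets of a gene, and leaving out each pool. Arrays hold no read counts, and precision is limited by the number of arrays.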

Additional observations from a re-analysis of the deposited data

Results flagged for a closer look

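Among 88 genes of the oxidase, signalling and marker lists, 13 had 1 congenic pool far from the other 3 by Dixon's test, and chance alone gives about 1 in 20 groups. None of the 6 subunits was among them. In 4 of the 13 the other congenic pools shared exactly 1 value, so that a small step stood out. These were Nox1 (2.61 in replicate 4, the others 2.64), Noxo1 (4.90 in replicate 2, the others 4.81), Noxa1 (3.60 in replicate 2, the others 3.41) and Duoxa2 (2.86 in replicate 2, the others 2.88).

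Congenic replicate 3 was far below the others for the kinase gene Syk (4.47, the others 5.13 to 5.25), the T cell receptor chain Cd3g (6.02, the others 7.55 to 7.73) and the immunoglobulin gene Igkc (10.71, the others 11.85 to 11.92). It also had the lowest congenic value of the 5 phagocyte subunits. Congenic replicate 1 was far above the others for Mmp9, a protease of neutrophils and macrophages (6.91, the others 3.61 to 3.83), and for S100a8 (2.06, the others 1.73 to 1.77). It was far below them for the beta cell genes Slc2a2 (9.05, the others 11.37 to 11.80) and Ins2 (10.34, the others 11.31 to 11.50) and for the endothelial receptor gene Kdr (7.04, the others 8.67 to 8.92). Duox2 was 4.01 in congenic replicate 4, the others 3.22 to 3.28.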

How the results depend on the processing

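Of 90 results of the 6 subunits under alternative settings, 87 kept their direction and their side of an adjusted p of 0.05. All 6 subunits were above an adjusted p of 0.05 to begin with, so this count could not register a weaker result. For Cybb the limma adjusted p was 0.158 in the main fit. It was 0.0843 among brighter probe sets only and 0.924 with the replicate block, and both counted as kept. Ncf4 passed an adjusted p of 0.05 among brighter probe sets only (1.40, limma adjusted p = 0.0476) and without congenic replicate 3 (1.58, adjusted p = 0.0130). Its range with each pool left out was 1.27 to 1.58. Nox4 reversed to 0.21 without NOD-Rag1-/- replicate 1 (range -0.57 to 0.21). Median centring moved the log2 FC of each subunit by -0.12, which changed no direction among them. Cyba did not pass the study's threshold under median centring, the methods' t-test, the replicate block, or without congenic replicate 1, 2 or 4 or NOD-Rag1-/- replicate 1 or 2. The probe sets past an adjusted p of 0.05 numbered 54 with limma, 97 among brighter probe sets, 1 with the methods' t-test, 31 with the array sets as a block and 10 to 258 with a pool left out (258 without congenic replicate 3, 10 without NOD-Rag1-/- replicate 3). Those past the study's threshold numbered 1920, against 1248 with the methods' t-test and 1264 to 3299 with a pool left out (3299 without congenic replicate 1, 1264 without NOD-Rag1-/- replicate 2, 1279 without replicate 3). Of the 1920, 68.2% were higher in the congenic strain, but 44.5% of 2315 after median centring, 79% with the array sets as a block and 81.7% with the replicate block. The replicate block left 0 probe sets past an adjusted p of 0.05 and 1148 past the study's threshold. Deviations from the strain means correlated at -0.38, -0.14 and -0.11 between pools of the same number. With so few pools, these values cannot decide whether the numbers pair the samples. With the replicate block Cybb differed by 1.98, Cyba by 0.73, Ncf1 by 1.20, Ncf4 by 1.37, Rac2 by 1.94 and Nox4 by -0.21. The cause of these changes was not tested. The small number of pools and dim probe sets such as those of Nox4 limit what can be detected.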
